A study of Macaca mulatta with 38 samples.

Results

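Among 44423 barcode sequences counted in blood cells of 1 rhesus macaque, 7 are described here that had a passing share in myeloid cells, with more reads at day 187 after transplant than at day 119. They were selected on measured values. Shares are percent of a library's reads, and each of the 7 had a mean share under 0.5% over 5 nRBC libraries, at least 0.2% in 1 or more of the Gr and Mono libraries of days 119 and 187, and a higher sum of Gr and Mono at day 187 than at day 119. Barcodes are numbered by their mean share over all 38 libraries, and the 7 are bc10, bc25, bc26, bc29, bc30, bc54 and bc63. A further 44 barcodes met the first 2 conditions with the higher sum at day 119, and are called the day-119 barcodes here. The shares in Gr and Mono of days 119 and 187 chose the 7 and are given as a description, with no test.

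The animal, ZL34, was a male of 4 years. Its CD34+ cells, mobilised with G-CSF/AMD1300, were transduced with a lentiviral barcode library at a multiplicity of infection of 25 and returned after TBI, and it was given cidofovir at 5 mg/kg each week, so all libraries share this history and none comes from an untreated control. DNA of peripheral blood cells gave 9 libraries labelled T and 8 labelled B, with 7 each for Gr and Mono, 5 for nRBC and 1 each for EOS and CD34p, between days 32 and 553, with 766039 to 3832849 reads each. Each lineage and day is 1 library of 1 animal, so the spreads below are over serial days and not over biological replicates. The labels are read here as T cells, B cells, granulocytes, monocytes, nucleated red blood cells, eosinophils and CD34+ cells; DNA libraries hold no marker gene against which to check them. The table holds no count between 1 and 100. A listed 0 may therefore hide up to 100 reads, which allows a share of up to 0.00261% to 0.0131% depending on the library. The shares of a library add up to 100%, and 7 other barcodes with a nRBC mean of at least 0.5% (the leading barcodes) held nearly all Gr and Mono reads on the last days, so a lower share does not show fewer cells.

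A lentiviral barcode is copied to every descendant of the cell it entered, so the same sequence in several lineages marks output from a common ancestor. Granulocytes and monocytes live briefly in blood and need steady replacement from the marrow, whereas T and B cells can live long and divide outside it. At a high multiplicity of infection a single cell can take up several barcodes, so the number of barcodes is not a number of clones; whether any of the 7 entered the same cell was not tested.

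The 7 sequences are printed because they identify the clonal tags followed below. All begin with the same 6 bases, in lower case, and capitals mark the bases from there to the start of the sequencing adapter within the 50 listed bases.
bc10: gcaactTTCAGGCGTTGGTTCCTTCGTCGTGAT
bc25: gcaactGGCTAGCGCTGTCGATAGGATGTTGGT
bc26: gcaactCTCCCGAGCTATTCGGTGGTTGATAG
bc29: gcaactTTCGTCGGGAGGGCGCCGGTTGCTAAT
bc30: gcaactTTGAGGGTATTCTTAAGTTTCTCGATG
bc54: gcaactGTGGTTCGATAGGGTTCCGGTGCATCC
bc63: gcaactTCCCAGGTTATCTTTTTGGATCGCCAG

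The part in capitals had 27 bases in 6 of them and 26 in bc26. In the table, 79.2% of sequences had 33 bases before the adapter, as those 6 have, and 4.92% had 32, as bc26 has. Their GC content ran from 37.0% in bc30 to 63.0% in bc29, and the quartiles of the table were 48.1% and 59.3%. The 21 pairs among the 7 differed by 12 to 18 edits, and no other sequence of the table lay within 3 edits of any of them. None of the 7 is thus a near copy of another listed sequence at that distance.

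The name "highest at day 187" held for monocytes and not for granulocytes. In Mono all 7 had their highest share at day 187, and the ratio of day 187 to day 119 was 1.10 to 4.09. In Gr, bc63 alone was higher at day 187 than at day 119, with a ratio of 4.45, and the other 6 had ratios of 0.446 to 0.912. The highest Gr share fell on day 119 for bc10, bc25, bc26, bc30 and bc54 and on day 266 for bc29 and bc63. Of the 44 day-119 barcodes, 1 was higher in Mono at day 187 and 0 were higher in Gr. The rule parted the 44 from the 7 by these same libraries, so it largely set this contrast in advance. At day 187, the Mono share over the Gr share was 4.79 for bc10, 5.60 for bc25, 4.97 for bc26 and 4.23 for bc30, 1.74 for bc29 and 1.86 for bc54, and 0.568 for bc63. The sum over Gr and Mono therefore passed the rule through the monocyte library in the 6 barcodes other than bc63.

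Some barcodes lay near the limits of the rule. Just inside the comparison of days was bc29, with a sum of 2.54% at day 187 against 2.49% at day 119, a ratio of 1.02, followed by bc54 at 1.17 and bc30 at 1.22. Just outside was bc27, at 2.67% against 2.80%, a ratio of 0.955, followed by bc24 at 0.827. At the limit of 0.2%, bc63 lay inside with a highest share of 0.206%, and bc66 lay outside with 0.169%. The nRBC limit lay far from both sides, since the highest nRBC mean among the 7 was 0.0488% in bc10 and the lowest among the leading barcodes was 1.36% in bc11.

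bc10 was the most abundant of the 7 and the one with the most reads in T. Its T share was listed at 0 on day 32 and was then 0.446% on day 119, 6.26% on day 187, 5.45% on day 266, 4.31% on day 365, 4.74% on day 393, 3.97% on day 494, 2.19% on day 536 and 1.61% on day 553. Every T share from day 187 on was thus above that of day 119, and the T ratio of day 187 to day 119 was 14.0. Its B share was listed at 0 on day 32 and was 0.0698%, 0.519%, 0.173%, 0.245%, 0.0087%, 0.0249% and 0.00766% on days 119, 187, 266, 365, 393, 494 and 553. The B ratio of day 187 to day 119 was 7.44, so both lymphoid lineages were higher at the later of these days.

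In Mono, bc10 had 0.031%, 1.93%, 7.89%, 4.05%, 0.186%, 0.00485% and 0.0032% on days 32, 119, 187, 266, 365, 494 and 553. In Gr the shares on the same days were 0.0384%, 2.28%, 1.65%, 0.356%, 0.0276%, 0.00423% and 0.0066%. It was the only one of the 7 still listed in Gr or Mono on days 494 and 553, and the last Mono share rested on 121 reads, with an exact Clopper-Pearson 95% interval of 0.00265% to 0.00382%. On day 553 the T share of 1.61% rested on 55655 reads and had an interval of 1.59% to 1.62%. Such intervals describe counting error alone, because reads copied by PCR were not collapsed to original molecules.

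The time course of bc10 was closest to 3 day-119 barcodes, bc7, bc8 and bc9, chosen here by likeness after the values were seen. Over the 38 libraries, Pearson's r on log2(percent + 0.01) was 0.974 with bc7, 0.972 with bc8 and 0.971 with bc9, and no other barcode among 370 that reached 0.2% somewhere had r of at least 0.95 with bc10. The libraries share days and column sums, so r is a description. In T, bc10 stood at 0.8996 to 0.997 of the 3 shares at day 187 and at 0.120 to 0.141 of them at day 119. In B the ratios were 0.960 to 1.19 at day 187 and 0.177 to 0.224 at day 119, and in Mono 0.959 to 1.07 at day 187 and 0.233 to 0.243 at day 119. In Gr they were 0.382 to 0.402 at day 187 and 0.206 to 0.217 at day 119. Gr alone among these lineages thus held bc10 at well under the level of the other 3 at day 187, and its ratios were 0.401 to 0.429 at day 266 and 0.987 to 1.05 at day 365. In T, the ratios after day 187 ran from 0.913 to 1.22. Those in B ran from 0.559, at day 266, to 1.46, at day 365, and those in Mono from 0.890, at day 553, to 1.41, at day 365. The difference between lineages in when bc10 reached the level of bc7 to bc9 was not tested.

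bc25, bc26 and bc30 followed nearly the same time course, with r of 0.989 to 0.996 between them over the 38 libraries. The T share of bc25 was listed at 0 on day 32 and was 1.39%, 1.19%, 0.828%, 0.547%, 0.621%, 0.503%, 0.289% and 0.160% on days 119, 187, 266, 365, 393, 494, 536 and 553. Unlike bc10, bc25 thus had its highest T share on day 119. Over the 8 T libraries that list them, bc26 stood at 0.876 to 1.37 of bc25 and bc30 at 0.732 to 1.17 of it. In Mono, bc25 had 0.0399%, 1.08%, 2.77%, 0.175% and 0.0172% on days 32, 119, 187, 266 and 365, and in Gr 0.0465%, 1.11%, 0.494%, 0.137% and 0.0101%. On days 494 and 553, none of the 3 was listed in Gr or Mono. In B, bc25 had at most 0.047%, bc26 at most 0.0385% and bc30 at most 0.0447%, and the last day on which B listed them was 365 for bc25 and bc26 and 393 for bc30. The course was shared by many day-119 barcodes. Among the 370 compared, r was at least 0.95 with 17 day-119 barcodes for bc25, 15 for bc26 and 18 for bc30. The closest of these to bc25 was bc36, with r of 0.986.

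bc29 and bc54 formed the other group, with r of 0.975 over the 38 libraries but 0.409 over the 8 T libraries from day 119. Each was about as abundant in Gr and Mono on day 266 as on day 119. In Mono, bc29 had 0.0583%, 1.46%, 1.61%, 1.47% and 0.0314% on days 32, 119, 187, 266 and 365, and in Gr 0.138%, 1.03%, 0.926%, 1.24% and 0.00817%. The corresponding Mono shares of bc54 were 0.0408%, 0.513%, 0.707%, 0.507% and 0.02%. Neither was listed in Gr or Mono on days 494 and 553, and bc54 was listed at 0 in Gr on day 365 as well. In T, bc29 had 0.405%, 0.433%, 0.42%, 0.316%, 0.377%, 0.368%, 0.232% and 0.121% from day 119 to day 553, after a listed 0 on day 32. Its T shares on days 119 to 494 thus lay between 0.316% and 0.433%. The T share of bc54 was 0.0366% to 0.116% from day 119 to day 536 and 0.0465% on day 553, and bc54 stood at 0.0846 to 0.386 of bc29 over the 8 T libraries. bc29 was closest to bc27 and bc22, both with r of 0.994 and both day-119 barcodes. The closest to bc54 was bc22, with r of 0.977, ahead of bc29, and bc27 had 0.973 with bc54. With the T and B libraries alone, 17 libraries that the rule did not use, bc25, bc26, bc29 and bc30 formed 1 group at r of at least 0.95 and the other 3 were single.

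bc63 differed from the other 6 in its lymphoid output. Its B shares were 0.0778%, 0.0591%, 0.0529%, 0.111%, 0.114%, 0.196% and 0.0479% on days 119, 187, 266, 365, 393, 494 and 553, after a listed 0 on day 32. The T shares on those days were 0.0282%, 0.0349%, 0.124%, 0.0648%, 0.113%, 0.0889% and 0.0225%, also after a listed 0. The T share was above the B share on 1 of 8 days and below it on 6. In Gr, bc63 had 0.00855%, 0.0462%, 0.206%, 0.316% and 0.00972% on days 32, 119, 187, 266 and 365, and in Mono 0.0263%, 0.0455%, 0.117%, 0.0469% and 0.0138%, and both lineages list it at 0 on days 494 and 553. One barcode outside the rule, bc66, had r of at least 0.95 with it, at 0.979.

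Summed over the 7, the T share was 5.12% on day 119, 10.1% on day 187, 8.58% on day 266, 6.22% on day 365, 7.25% on day 393, 5.99% on day 494, 3.502% on day 536 and 2.30% on day 553. bc10 held 61.9% to 69.9% of those reads from day 187 on and 8.71% of them on day 119, so the sum mostly follows bc10. The summed B share was highest on day 187, at 0.670%, and was 0.0604% on day 553. In Mono the sum was 0.260%, 7.18%, 17.7%, 6.57%, 0.299%, 0.00485% and 0.0032% on days 32, 119, 187, 266, 365, 494 and 553. The Gr sums of those days were 0.353%, 6.96%, 4.66%, 2.80%, 0.0679%, 0.00423% and 0.0066%.

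Neither lymphoid lineage shared the higher level at day 187 across all 7. In T, 3 of the 7 were higher at day 187 than at day 119, namely bc10, bc29 with a ratio of 1.07 and bc63 with 1.24, and the other 4 had ratios of 0.363 to 0.854. Among the day-119 barcodes, 21 of 44 were higher in T at day 187. In B, bc10 alone was higher at day 187, the other 6 had ratios of 0.351 to 0.760, and 3 of 44 day-119 barcodes were higher. These are single libraries with no test.

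On days 266, 365, 494 and 553, which the rule did not use for Gr and Mono, most of the 7 had a higher mean share of all reads in T than in the myeloid libraries. Of the reads outside the leading barcodes, bc10 held less in T than in Mono on each of these days, as given below. T averaged 3.84% ± 1.62 for bc10, 0.509% ± 0.274 for bc25, 0.529% ± 0.289 for bc26, 0.306% ± 0.131 for bc29, 0.428% ± 0.247 for bc30, 0.0887% ± 0.0299 for bc54 and 0.0750% ± 0.0425 for bc63 (SD over 4 days). With each listed 0 set at its limit, the T mean was at least 6.62 times the mean of Gr and Mono for bc10, 11.6 times for bc25, 9.96 times for bc26 and 10.7 times for bc30. By the same measure it was at least 1.505 times for bc63, and the ratio was 0.886 times for bc29 and 0.748 times for bc54. With listed 0s left at 0, the means of bc29 were 0.313% in Gr and 0.375% in Mono. Those of bc54 were 0.101% in Gr and 0.132% in Mono. The T means of bc29 and bc54 thus lay below their Gr and Mono means either way. T lay above both Gr and Mono on 4 of 4 days for bc10, bc25, bc26 and bc30 and on 3 of 4 for bc29, bc54 and bc63. For bc29 and bc54, the mean of Gr and Mono was set mainly by day 266, when both were still abundant there.

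edgeR's quasi-likelihood test, with day as a block and Benjamini-Hochberg adjustment over all 298 barcodes tested, called 6 of the 7 higher in T than in Gr and Mono, against a background of 69.8% of all barcodes tested. All 7 passed the filter on low shares, and in this fit each reached 0.05% in at least 2 libraries other than T. The fitted log2 difference was 6.99 ± 1.70 (SE) for bc10, with an adjusted p of 0.000287, and 10.83 to 13.85 for the other 5 called, with adjusted p of 0.00215 to 0.0244. bc63, at 6.53 ± 4.63 and an adjusted p of 0.187, did not pass. Where myeloid counts are listed at 0, such fitted values are not bounds on the difference. With listed 0s at 100 reads they were 4.54 for bc29 and 3.17 for bc54. Both barcodes were called higher in T although their T means over these days lay below their Gr and Mono means. In the fit reported, the median over the 7 was 11.76 and over all barcodes tested 10.49. Of the day-119 barcodes tested, 38 of 38 were called higher too. The edgeR p-values treat serial libraries of a single animal as if they were independent. When the library sizes left out the leading barcodes, or without the day block, 0 of the 7 were called, where 101 and 62 of the 298 barcodes were. Without day 494 or without day 553 bc10 was the only one of the 7 called. In those fits 51 of 177 and 64 of 290 barcodes tested were called. Without day 266 all 7 were called, bc63 with an adjusted p of 0.0157, as were 191 of the 219 barcodes then tested. In that fit bc25, bc26, bc29, bc30 and bc54 reached 0.05% in T libraries alone, so their calls there are no independent support. Over all barcodes tested, 208 were called higher and 6 lower in T, and with library sizes that left out the leading barcodes 79 higher and 22 lower, with a median of 3.03.

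In the B libraries of the same 4 days, none of the 7 passed the test against Gr and Mono. edgeR called 0 of the 7 in either direction, against a background of 57.7% of barcodes called higher in B, and 202 of the 298 tested had an unadjusted p under 0.05. Fitted log2 differences ran from -0.48 to 7.64, with the highest in bc63 at 7.64 ± 4.68 and an adjusted p of 0.134. With library sizes that left out the leading barcodes they ran from -6.32 in bc10 to 0.58 in bc63, with 1 of 7 above 0 and a median of -4.98 against 0.40 by all reads, so the data give no stable direction for the 7 here. DESeq2 called 2 of the 7, bc10 lower in B at -2.71 with an adjusted p of 0.00917, where edgeR had 0.47, and bc63 higher at 4.96 with an adjusted p of 0.00745. In all, DESeq2 called 209 of the 298 higher and 13 lower. Without day 266, edgeR called bc63 higher as well, with an adjusted p of 0.0163, as it did 134 of the 219 barcodes then tested. The background was itself unstable, since 172 barcodes were called higher and 6 lower in B, but 0 were called without day 494 or without day 553, where 50 and 105 had an unadjusted p under 0.05, and 19 higher and 10 lower with library sizes that left out the leading barcodes. The B share of bc63 lay above both Gr and Mono on 3 of 4 days, and its B mean was at least 2.05 times the mean of Gr and Mono with the listed 0s of Gr and Mono at their limit. For the other 6 this lower bound, with listed 0s of B left at 0, was 0.0843 to 0.263 times.

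T shares lay above B shares for 6 of the 7, and bc10 and bc30 passed the test. Over the 8 days that T and B share, bc10 averaged 3.35% ± 2.36 in T and 0.131% ± 0.180 in B (SD over days), and bc30 averaged 0.595% ± 0.461 in T and 0.0128% ± 0.0151 in B. With the listed 0s of B at their limit and the T 0 of day 32 left at 0, the ratio of the T mean to the B mean was at least 25.5 for bc10, 43.8 for bc25, 37.4 for bc26, 10.0 for bc29, 39.0 for bc30, 4.68 for bc54 and 0.718 for bc63. T lay above B on 7 of 8 days for each of the 7 except bc63, and on day 32 T listed all 7 at 0. edgeR called bc10 higher in T, at a log2 difference of 5.37 ± 1.07 and an adjusted p of 0.013, and bc30, at 6.48 ± 1.76 and an adjusted p of 0.0278, so 2 of the 7 were called, where 18.0% of the 317 barcodes tested were called higher in T. The B shares of bc25, bc26, bc30 and bc54 all lay under the filter of 0.05%, so these 4 entered the test through T alone and could hardly have been called higher in B, and the call of bc30 is no independent support. With no filter the adjusted p was 0.351 for bc30 and 0.91 for bc10. bc25, bc26, bc29 and bc54 had log2 differences of 3.33 to 7.19 and adjusted p of 0.086 to 0.277, and bc63 had -0.58 ± 0.71 and 0.517. The median over the 7 was 5.37 and over all barcodes tested 0.12. In all, edgeR called 57 higher and 24 lower in T, and DESeq2 102 higher and 112 lower. bc10 was called under 13 of 15 alternatives, the exceptions being no day block and no filter, and bc30 under 8 of 15. Leaving out any one of days 119, 187, 266, 365, 393 and 494 left bc10 as the only one of the 7 called. In those fits 28 to 50 barcodes were called in all, of 231 to 307 tested. Without day 32 bc10, bc25, bc26 and bc30 were called, among 121 called of 312 tested, and bc25, bc26 and bc30 again entered through T alone.

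Loss with time was tested as a slope per 100 days, from day 187 in T and B and from day 266 in Gr and Mono, whose earlier days the rule used. In Gr and Mono all 7 fell, with log2 slopes of -7.11 to -2.87, against a background of 83.0% of 358 barcodes called falling. bc10 fell least, at -2.87 ± 0.49 with an edgeR adjusted p of 4.13e-05. The median over the 7 was -5.95 and over all barcodes tested -5.24. With library sizes that left out the leading barcodes, 3 of the 7 were called, bc29, bc54 and bc63, among 112 called falling of 358. The slope of bc10 was then 0.69 with an edgeR adjusted p of 0.19. Without day 266, each of the 7 except bc54 was called falling, among 58 called falling of 301 tested. Of the day-119 barcodes, 18 of 38 were called falling in that fit. There bc25, bc26, bc29, bc30 and bc54 passed the filter through T libraries alone. Their Gr and Mono shares in that fit were above 0 at day 365 only, so the calls among them are no independent support for a fall.

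In T, 0 of the 7 were called by edgeR, with slopes of -0.60 to -0.01 and adjusted p of 0.971 to 1, against a background of 0.559% of barcodes called, and 17 of 358 had an unadjusted p under 0.05. The share at day 187 was nevertheless 3.90 times that at day 553 for bc10, 7.42 times for bc25, 5.00 times for bc26, 3.59 times for bc29 and 8.56 times for bc30, 0.787 times for bc54 and 1.55 times for bc63. Of the reads outside the leading barcodes these ratios were 2.002 for bc10, 3.81 for bc25, 2.57 for bc26, 1.85 for bc29, 4.40 for bc30, 0.405 for bc54 and 0.795 for bc63, so bc63 was lower at day 187 by that measure. In B, 0 of the 7 were called, with slopes of -4.01 to 0.31, against a background of 1.96%, and 28 of 358 had an unadjusted p under 0.05. bc63 was the one with a slope above 0 in B, and bc10 had -1.59 ± 0.50 with an adjusted p of 0.161. The sign of bc63 turned to -0.09 in B with TMM factors and to -0.02 with DESeq2, and that of bc54 in T to 0.13 with TMM factors. DESeq2 called 0 of the 7 in T, and 5 in B, where it called 44 of all 358. Without day 365, edgeR called bc10, bc25, bc26 and bc54 falling in B, among 21 falling of 318 tested.

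A contrast of the T slope with the Gr and Mono slope, chosen after the data were seen, passed the edgeR test for all 7, at 2.44 to 6.80 log2 per 100 days with adjusted p of 1.61e-05 to 0.00224. The background was 78.2% of the 358 barcodes. With library sizes that left out the leading barcodes 0 of the 7 passed, where 94 of the 358 were called. Without day 266, bc10 and bc54 no longer passed, and 54 of the 301 barcodes then tested were called, 17 of the 38 day-119 barcodes included. In that fit bc25, bc26, bc29, bc30 and bc54 reached the filter of 0.05% in T libraries alone. The matching contrast of the T slope with the B slope called 0 of the 7 and 9 barcodes in all. Without day 365 it called bc25, bc26 and bc54, among 23 called of 318 tested, 10 of the 38 day-119 barcodes included. The T libraries listed all 7 on 8 of 9 days, day 553 included, whereas B listed bc10, bc29 and bc63 at day 553, and Gr and Mono listed bc10 alone.

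Shares of the reads outside the leading barcodes, a measure added after the data were seen, gave another picture of the late myeloid libraries. The 7 together held 7.25%, 21.1%, 11.8%, 16.1%, 17.0% and 15.0% of those reads in Mono on days 119, 187, 266, 365, 494 and 553. In Gr the values were 7.16%, 4.70%, 3.33%, 18.5%, 7.66% and 11.0% on the same days. bc10 alone made up the values of days 494 and 553 in both lineages. These late values rest on few reads and few barcodes, since reads outside the leading barcodes were 0.367% of the Gr library and 1.85% of the Mono library on day 365 and 0.0285% of the Mono library on day 494. On day 494, 15 barcodes outside the leading ones were listed in Gr and 5 in Mono, and on day 553 the counts were 11 and 6. The 7 together held 9.12%, 7.35%, 6.25% and 4.50% of those reads in T on days 266, 365, 494 and 553. These T values lay below the Mono values of the same days, and from day 365 below the Gr values too. For bc10 the T values were 5.79%, 5.10%, 4.15% and 3.15% on these days, and the Mono values 7.29%, 10.0%, 17.0% and 15.0%. In T, the ratio of day 187 to day 553 by this measure was 2.26 for the 7 together, against 4.40 by all reads.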

How the data were processed

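Per the labels' protocols, the barcode PCR had 28 cycles and took 200 ng of DNA. The sources used here name neither sequencer nor barcode program. Read counts were deposited by the authors as 1 table, 44423 sequences by 38 libraries, with no other normalization found in the values, which are whole numbers with unequal sums. That a listed 0 means 100 reads or fewer is inferred from the smallest count, 101. No sequence was merged or removed.

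Shares are percent of a column sum. Libraries were grouped by the labels' cell type and day. No batch or run is given in the labels used here. edgeR 4.0.16 in R 4.3.3 (glmQLFit, glmQLFTest) was run on the deposited counts of every barcode that reached 0.05% of reads in 2 or more of the libraries fitted, scaled by column sums, with calls at an adjusted p under 0.05 after Benjamini-Hochberg over all barcodes tested; the SE was obtained by dividing the log2 change by the root of the F statistic. Day was a block in the fits between lineages, where T or B was set against the mean of Gr and Mono. Slope fits gave T, B, and Gr with Mono an own slope, and Gr and Mono an intercept each. Groups of time courses were joined by complete linkage at r of at least 0.95. The alternatives were TMM factors, column sums without the leading barcodes, DESeq2 1.42.0, filters at 0.01% and none, listed 0s set to 100 reads, no day block, log2 of day, T and B from day 266, other limits of the rule or of r, other pseudocounts, and each day left out in turn.

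The named barcodes are those that reached 1% of reads somewhere, those next to a limit of the rule, up to 3 called in each direction per test, and the 3 with the most T or B reads late; bc7, bc8, bc9, bc22, bc36 and bc66 as companions were added after their values were seen. The members and lists were chosen with earlier results of these data known.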

Additional observations from a re-analysis of the deposited data

Results flagged for a closer look

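In series of 5 to 9 days within a lineage, 13 of 40 had 1 day far from the others by Dixon's criterion. Chance alone gives about 1 in 20 for independent samples, which serial days are not. In 6 of the 13, all in nRBC, the other 4 days were listed at 0, so that any listed count stands apart by construction. In Mono, day 187 stood apart for the sum of the 7, at 17.7% with 7.18% as the next highest, for bc25, at 2.77% with 1.08% next, and for bc63, at 0.117% with 0.0469% next. The rule used that library. In B, day 187 stood apart for bc10, at 0.519% with 0.245% next, and day 119 for bc30, at 0.0447% with 0.0187% next.

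In the nRBC libraries, day 309 stood apart for the sum of the 7, at 0.267% with 0.0162% next. On that day the single shares were 0.221% for bc10, 0.0135% for bc25, 0.0131% for bc26, 0.00483% for bc29, 0.0118% for bc30 and 0.00305% for bc54. The bc54 share is close to the 0.00261% to 0.00283% that a listed 0 allows in these libraries. For bc63 it was nRBC day 393, at 0.00634%. No other lineage has a library of day 309.

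The slopes in T and in Gr and Mono differed by the edgeR test of the difference itself for each of the 7, as for 78.2% of all barcodes tested. With column sums without the leading barcodes they differed for 0 of the 7 and for 94 of 358 barcodes. T minus Gr and Mono, in log2 per 100 days, was 2.44 for bc10, 5.32 for bc25, 5.50 for bc26, 6.80 for bc29, 5.30 for bc30, 6.70 for bc54 and 5.67 for bc63.

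The EOS library of day 494 entered no comparison. It held 0.0296% of bc10, 0.00289% of bc25, 0.00783% of bc26, 0.00297% of bc30 and 0.00271% of bc63. The Gr and Mono libraries of that day listed bc10 alone among the 7, at 0.00423% and 0.00485%. The CD34p library of day 553 listed none of the 7.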

How the results depend on the processing

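The rule gave 15 members at a limit of 0.1%, 6 at 0.5% and 1 where both Gr and Mono had to be higher at day 187. The 2 groups of time courses became 1 at r of 0.98 and 1 with the T and B libraries alone. For T against Gr and Mono, the 6 members called became 0 with column sums without the leading barcodes, 0 without the day block and 1 to 7 leaving out a day. For B against Gr and Mono, 0 became 2 with DESeq2, 1 with listed 0s at 100 reads and 0 to 1 leaving out a day. For T against B, 2 became 5 with DESeq2, 6 with listed 0s at 100 reads, 5 with the 0.01% filter, 0 with no filter and 1 to 4 leaving out a day. For the slope in B, 0 became 5 with DESeq2, 1 with listed 0s at 100 reads, 2 with no filter and 0 to 4 leaving out a day. For the slope in Gr and Mono, 7 became 3 with column sums without the leading barcodes. The sign turned for bc10 with those column sums, to -1.01 in T against Gr and Mono and to 0.69 in the Gr and Mono slope, and without the day block for bc29 at -0.16 and bc54 at -0.38 in T against Gr and Mono. Values of members that did not pass turned sign in 20 of 77 cases in B against Gr and Mono (with those column sums, bc10 at -6.32, bc29 at -3.97 and bc54 at -4.13), in 1 of 11 in T against Gr and Mono (bc63 at -0.11 with those column sums), in 6 of 105 in the slope in T, all bc54, and in 2 of 105 in the slope in B, both bc63. Of the other values of members called in these comparisons, and of all members in T against B, 218 kept direction and side of the threshold, 14 newly passed it and 33 no longer did. The causes were not tested. Barcodes called in all for T against Gr and Mono were 214 of 298 tested in the fit reported. They were 101 of 298 with column sums without the leading barcodes and 62 of 298 without the day block. With the 0.01% filter they were 937 of 3706, with no filter 1159 of 21046, and leaving out a day 51 to 197, with 177 to 290 tested. For B against Gr and Mono the numbers tested were the same. The 178 called became 29 with column sums without the leading barcodes, 31 without the day block, 2277 of 3706 with the 0.01% filter and 4893 of 21046 with no filter. Leaving out a day gave 0 to 140. For T against B the 81 of 317 became 214 with DESeq2 and 210 with listed 0s at 100 reads. They became 1066 of 5212 with the 0.01% filter, 18191 of 40339 with no filter and 28 to 121 leaving out a day, with 231 to 313 tested. For the slopes, with 358 tested, the 2 in T became 24 and the 7 in B became 44 with DESeq2. The 297 in Gr and Mono became 119 with column sums without the leading barcodes. They became 2689 of 4786 with the 0.01% filter, 2248 of 30830 with no filter and 58 of 301 without day 266. Depth limits late Gr and Mono values, where a listed 0 allows 100 reads.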
